A study of Homo sapiens with 6 samples.

Results

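The transcripts of 9 cell adhesion molecules, namely the immunoglobulin superfamily members ICAM1, ICAM3, ICAM5, VCAM1, ALCAM, MCAM, L1CAM and NCAM1 together with the hyaluronan receptor CD44, were followed in renal cell carcinoma cells with lowered RNF25. They were taken by symbol with no cut on their values, but were chosen with earlier results of these data known. They are 9 of the 30267 genes in the table. All 9 had a row, and 6 of them passed the filter on low values, which kept genes that reached 10 normalized counts in 3 or more libraries. SW839 is an established renal cell carcinoma line. The shRNF25 group held 3 libraries from SW839 cells carrying a short hairpin RNA against RNF25, an E3 ubiquitin ligase, and the shControl group held 3 libraries from SW839 cells with pLKO, the control vector. The study's methods describe lentiviral delivery with puromycin selection, while the labels speak of a transfection. Both groups were grown in the same serum-containing medium without any further stimulus named in the labels. The library names of the shRNF25 group share the stem shRNF25B, which points to a single hairpin without stating it. Effects of RNF25 loss and of other targets of the hairpin cannot be told apart. The treatment text speaks of the RNF25 plasmid for all 6 samples, so the groups rest on titles and genotype labels. The series describes biological triplicates and names no separate cultures, so p-values measure the spread between these libraries. The shRNF25 library names form a single numbered series, while those of the 3 shControl libraries do not. The names do not say whether the libraries were prepared together.

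Total RNA depleted of ribosomal RNA had been sequenced, and the deposited value was a normalized count, that is, the reads of a gene divided by a scaling factor of its library. The reads counted on genes ranged from 18647460 to 19943154 a library. RNF25 itself had 533.5 to 694.2 normalized counts in shControl and 214.1 to 265.0 in shRNF25, a log2 fold change of -1.27 (limma, adjusted p = 0.000585). It shares 260 exon bases with STK36 on the other strand. STK36 had 677.6 to 928.2 normalized counts in shControl and 1154 to 1204 in shRNF25. The strand setting of the counting is not given in the sources used here, so reads of the shared bases cannot be told apart. Libraries of shControl correlated at 0.976 to 0.987 with each other and those of shRNF25 at 0.994 across genes. In shControl replicate 1 the mitochondrial gene MT-CO1 took 4.54% of the reads, against 1.46% to 1.80% in the other 5 libraries. The epithelial markers EPCAM (4205 to 5912 normalized counts), KRT8 (22206 to 38009) and KRT18 (15768 to 18790) were abundant in all libraries, the renal factor PAX8 had 76.7 to 140.3, and CA9, a marker of clear cell carcinoma, had 1.85 to 50.7 and did not pass the filter.

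Immunoglobulin adhesion molecules carry folded extracellular domains that bind a partner on a neighbouring cell, either a copy of themselves, as ALCAM, L1CAM and NCAM1 do, or an integrin, as the ICAMs and VCAM1 do. ICAM1 and VCAM1 are known as inflammation-inducible genes whose promoters hold binding sites for NF-κB. CD44 is not an immunoglobulin family member but the main cell surface receptor for hyaluronan, a matrix polysaccharide, and is often used as a marker of mesenchymal or stem-like tumor cells.

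The promoters of 4 of these genes are shown because 2 of them, ICAM1 and VCAM1, are textbook NF-κB targets with very different levels here, and the other 2, MCAM and CD44, fell with ICAM1. Each line holds the 250 bases before the start listed by RefSeq (GRCh38.p14), 5′ to 3′ on the gene's strand. Capitals mark a match, on either strand, to the NF-κB consensus or to the related letters GGAANTTCC, and the MCAM and CD44 lines have no such match. The windows are chr19:10270870-10271119 on the plus strand for ICAM1, chr1:100719492-100719741 on the plus strand for VCAM1, chr11:119317131-119317380 on the minus strand for MCAM and chr11:35138921-35139170 on the plus strand for CD44.
ICAM1: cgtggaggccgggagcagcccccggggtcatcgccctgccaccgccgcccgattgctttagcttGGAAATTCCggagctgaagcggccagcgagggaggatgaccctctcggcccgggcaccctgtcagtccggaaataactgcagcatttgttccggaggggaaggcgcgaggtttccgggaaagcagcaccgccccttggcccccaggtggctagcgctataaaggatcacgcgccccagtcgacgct
VCAM1: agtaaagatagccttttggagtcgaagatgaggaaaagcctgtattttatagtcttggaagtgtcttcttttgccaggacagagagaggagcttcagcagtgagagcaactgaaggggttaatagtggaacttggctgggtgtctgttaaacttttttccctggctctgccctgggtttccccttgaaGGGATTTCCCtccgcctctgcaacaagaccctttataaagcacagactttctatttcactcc
MCAM: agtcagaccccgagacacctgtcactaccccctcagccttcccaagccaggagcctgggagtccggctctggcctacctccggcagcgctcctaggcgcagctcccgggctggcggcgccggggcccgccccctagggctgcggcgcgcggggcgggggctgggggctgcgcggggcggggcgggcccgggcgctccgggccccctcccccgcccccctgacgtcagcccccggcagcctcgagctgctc
CD44: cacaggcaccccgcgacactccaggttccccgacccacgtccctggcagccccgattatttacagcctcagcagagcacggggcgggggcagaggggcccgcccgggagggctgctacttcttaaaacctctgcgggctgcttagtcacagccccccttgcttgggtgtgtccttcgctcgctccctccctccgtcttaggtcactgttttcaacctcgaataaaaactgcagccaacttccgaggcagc

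In ICAM1 the match to GGAANTTCC lay 186 to 178 bases before the start, and in VCAM1 the match to the NF-κB consensus lay 62 to 53 bases before it. Among 35116 RefSeq promoter windows of the same length, which belong to 27305 symbols, 0.826% held GGAANTTCC and 9.96% held the consensus, so the consensus letters alone are common. ICAM5, ALCAM and both listed starts of L1CAM held neither, and ICAM3 held the consensus before 1 of its 3 listed starts. TGANTCA, the letters read by AP-1 factors, was in none of these windows and in 6.57% of all promoters. GGGCGG, the letters read by Sp1, was found 5 times in the MCAM window, 2 times each in those of ICAM1 and CD44, and in 42.6% of all promoters. The GENCODE 29 annotation starts ICAM1, MCAM and CD44 further upstream than RefSeq does, so these windows cover a single start of each gene. A match describes letters in a window and no binding was measured.

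Of the 6 adhesion molecules tested, 4 fell in shRNF25, namely ICAM1, MCAM, L1CAM and CD44, and 0 rose. A gene was called at a limma adjusted p under 0.05 with a fold change of at least 1.5, fitted on log2(normalized count + 1) over all 16554 genes past the filter. Among those genes 7.1% were called lower and 8.65% were called higher. At an unadjusted limma p under 0.05, 5 adhesion molecules were lower and 0 higher, and both edgeR and DESeq2 called 4 lower and 0 higher. The 3 shRNF25 libraries lay below all 3 shControl libraries in 5 of the 6 adhesion molecules, against 21.8% of the genes tested. The median log2 fold change was -1.11 over the 6 adhesion molecules and -0.01 over all genes tested. Because the adhesion molecules were chosen with earlier results known, these shares and medians are a background and not a test. Without shControl replicate 1, the library with the high MT-CO1 share, 5 adhesion molecules were called lower, with ICAM5 as the fifth, and 0 higher.

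**Figure D1:**
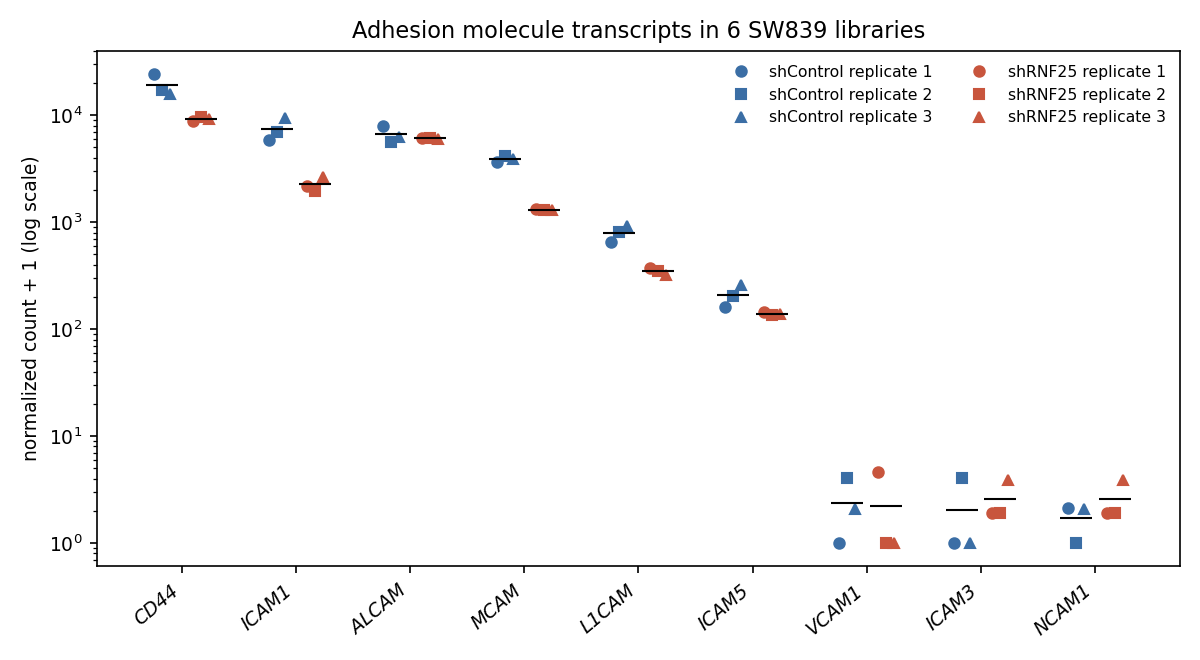
Normalized count plus 1 (log axis) of the 9 adhesion molecules in each of the 6 SW839 libraries, shControl in blue and shRNF25 in red, with the replicate shown by the marker and the group mean by a bar. ICAM1, MCAM, L1CAM, CD44 and ICAM5 have no overlap between the groups, ALCAM overlaps, and VCAM1, ICAM3 and NCAM1 lie under 4 normalized counts in every library.

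ICAM1, the endothelial and epithelial ligand of the leukocyte integrin LFA-1, and MCAM fell the most of these genes, ICAM1 further than MCAM (log2 fold changes -1.69 and -1.58) except without shControl replicate 3 (-1.50 and -1.58). The normalized counts of ICAM1 were 5861, 6899 and 9467 in shControl replicates 1, 2 and 3. They were 2166, 1967 and 2647 in shRNF25 replicates 1, 2 and 3. All shRNF25 libraries thus lay far below the lowest shControl library, and the highest control was replicate 3. The log2 fold change was -1.69 (SE 0.182, 95% interval -2.10 to -1.28, limma adjusted p = 0.000376), a 3.24-fold lower level. The gene spans chr19:10270835-10286615 on the plus strand (GRCh38, GENCODE 29), and the antisense gene AC011511.5, which shares 815 exon bases with it on the other strand, had at most 2.86 normalized counts. By exact permutation of the ICAM1 values, two-sided, p was 0.1, the smallest possible with 3 against 3 libraries, and every gene below whose groups did not overlap has the same p.

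ICAM5, or telencephalin, is the ICAM known from forebrain neurons, and its gene begins 3365 bases after the end of ICAM1 on the same strand (chr19:10289981-10296778). It had 159.2, 201.1 and 255.8 normalized counts in shControl and 142.1, 134.8 and 137.3 in shRNF25. The groups did not overlap, yet the lowest control, replicate 1, came close to the highest shRNF25 library. The log2 fold change of -0.54 (SE 0.183, 95% interval -0.96 to -0.13) missed the threshold in limma (adjusted p = 0.0644). It passed in DESeq2 (adjusted p = 0.0402) without reaching a fold change of 1.5, and both criteria were met without shControl replicate 1 (log2 fold change -0.71, limma adjusted p = 0.004). Over the alternatives its adjusted p lay between 0.004 and 0.184. As ICAM1 did, ICAM5 had its lowest control value in replicate 1 and its highest in replicate 3.

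ICAM3, the ICAM of resting leukocytes, lies 36997 bases further on, on the minus strand (chr19:10333776-10339823). It was read 3 times in the shControl libraries together and 5 times in those of shRNF25. VCAM1, the ligand of the integrin VLA-4 on inflamed endothelium, was read 4 times in each group, with 0 to 3.08 normalized counts in shControl and 0 to 3.64 in shRNF25. VCAM1, encoded at chr1:100719742-100739045, was thus close to undetected in cells in which ICAM1 was among the strongly expressed adhesion genes. No difference between the groups was detectable at this depth for ICAM3, VCAM1 or NCAM1, and none of them was tested.

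MCAM (CD146), an adhesion molecule of vascular cells and melanoma, had the smallest spread of the 6 tested. Its normalized counts were 3688, 4117 and 3911 in shControl and 1318, 1293 and 1293 in shRNF25. The shRNF25 libraries differed from each other by a coefficient of variation of 1.12% and the controls by 5.50%, and the gap between the groups was many times either spread. The log2 fold change was -1.58 (SE 0.0971, 95% interval -1.80 to -1.36, limma adjusted p = 1.73e-05), a 3.00-fold lower level. MCAM lies at chr11:119308529-119321521 on the minus strand and shares 509 exon bases with CBL on the other strand. CBL, an E3 ligase for receptor tyrosine kinases, had 2919 to 3561 normalized counts in shControl and 2364 to 2430 in shRNF25. Its log2 fold change of -0.38 (limma adjusted p = 0.0386) stayed under the fold threshold. Whether the reads were counted by strand is not given in the sources used here, so the reads of the shared bases cannot be told apart.

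ALCAM (CD166), the ligand of CD6 that also binds itself, was the tested adhesion molecule whose groups overlapped. It had 8003, 5655 and 6196 normalized counts in shControl and 6183, 6093 and 5960 in shRNF25. The highest value of all, in shControl replicate 1, and the lowest, in shControl replicate 2, both belonged to the control group. The log2 fold change was -0.11 with a 95% interval of -0.41 to 0.20 (limma adjusted p = 0.608), and its sign turned without shControl replicate 1 (0.04) and under quantile normalization (0.06). The interval leaves out a fall of the size seen for the 4 adhesion molecules that were called. The gene spans chr3:105366909-105576900 on the plus strand.

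L1CAM, known from axon growth and as a marker of invasive carcinoma, had 652.2, 813.6 and 926.0 normalized counts in shControl. In shRNF25 the values were 370.9, 345.4 and 321.2. The groups were well apart, again with the lowest control in replicate 1 and the highest in replicate 3. The log2 fold change was -1.19 (SE 0.148, 95% interval -1.52 to -0.86, limma adjusted p = 0.000803), a 2.28-fold lower level. L1CAM lies at chrX:153861514-153886174 on the minus strand, and the antisense gene LCA10, which shares 359 exon bases with it, had at most 4.10 normalized counts. NCAM1 (chr11:112961247-113278436), the neural cell adhesion molecule, was read 2 times in shControl and 5 times in shRNF25, so that 1 of these neural adhesion genes was expressed and the other was near the limit of detection.

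CD44 was the adhesion molecule with the most reads, 53452 over the 3 shControl libraries and 29933 over the 3 shRNF25 libraries. Its normalized counts were 24203, 17376 and 15782 in shControl and 8917, 9592 and 9304 in shRNF25. All shRNF25 libraries lay below all controls, and shControl replicate 1, the library with the high MT-CO1 share, was the highest. The log2 fold change was -1.02 (SE 0.157, 95% interval -1.37 to -0.67, limma adjusted p = 0.0023), a 2.03-fold lower level. It was -0.84 without shControl replicate 1 (limma adjusted p = 0.000119). CD44 lies at chr11:35138870-35232402 on the plus strand, and CD44-AS1, which shares 84 exon bases with it, had 13.0 to 25.4 normalized counts in shControl and 9.11 to 12.4 in shRNF25. Values are per gene, so the standard form of CD44 and its variant exon forms are added together.

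**Figure D2:**
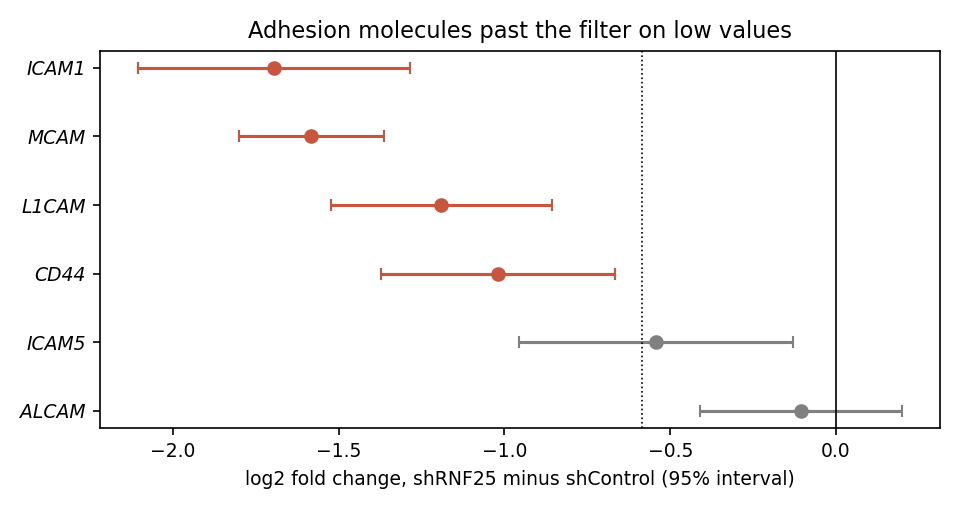
Log2 fold change (shRNF25 minus shControl, x axis) with its 95% interval from limma for the 6 adhesion molecules past the filter on low values, called genes in red and the others in grey, with a solid line at 0 and a dotted line at a fold change of 1.5 lower. The intervals of ICAM1, MCAM, L1CAM and CD44 lie wholly beyond the dotted line, that of ICAM5 spans it, and that of ALCAM spans 0.

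The sizes of these falls were compared between neighbours in their order, by the log2 ratio of the 2 genes within each library. For MCAM and L1CAM the ratios of the groups did not overlap, with a difference of -0.39 (two-sided exact permutation p = 0.1, the smallest possible, and 0.5 after adjustment over the 5 pairs). For the other 4 pairs, ICAM1 and MCAM, L1CAM and CD44, CD44 and ICAM5, and ICAM5 and ALCAM, the ratios overlapped between the groups, with exact permutation p from 0.4 to 0.6. With 3 against 3 libraries no pair could have passed, so these tests do not settle the order of the falls.

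Levels can be roughly compared between genes per kilobase of annotated exon. The length used was the union of all annotated exons of a gene, 10004 bases for CD44 and 3706 for ICAM1. It also counts exons that a transcript may leave out, such as the variant exons of CD44. The order of levels therefore depends on this choice of length. On that scale ICAM1 (1582 to 2555 normalized counts per kilobase) and CD44 (1578 to 2419) stood at the top in shControl and overlapped. ALCAM followed with 787.8 to 1115 per kilobase, then MCAM with 496.9 to 554.8. L1CAM had 89.7 to 127.4 per kilobase and ICAM5 40.8 to 65.5, without overlap between any of these neighbours. In shRNF25 the order of levels was different, with CD44 first (891.3 to 958.8 per kilobase), ALCAM second (830.2 to 861.3) and ICAM1 after them (530.8 to 714.2). MCAM (174.2 to 177.6), L1CAM (44.2 to 51.0) and ICAM5 (34.5 to 36.4) kept their places, and again no neighbours overlapped. VCAM1, ICAM3 and NCAM1 stayed under 1.05 per kilobase in every library.

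The genes whose pattern over the 6 libraries was most like that of ICAM1, by Pearson correlation of log2(normalized count + 1), were DAGLB (0.998), IRAK2 (0.998) and RND1 (0.997). These correlations describe 6 points in 2 separate groups and carry no test. DAGLB makes the endocannabinoid 2-arachidonoylglycerol, and IRAK2 is a kinase of interleukin-1 and Toll-like receptor signaling. RND1 had 582.6, 805.4 and 1301 normalized counts in shControl and 174.0, 157.9 and 205.9 in shRNF25, with the highest control in replicate 3 as for ICAM1. On the same measure L1CAM reached 0.973, MCAM 0.965, ICAM5 0.912, CD44 0.831 and ALCAM 0.188.

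Other immunoglobulin adhesion molecules did not share a direction. Of 25 tested among 36 listed, 2 fell and 4 rose, with a median log2 fold change of 0.10. Among all genes tested, 7.1% were called lower and 8.65% higher. These shares are the background for the counts in this list and in the lists that follow, and no list was tested as a set. NECTIN4, a junction protein, fell from 432.2 to 651.9 normalized counts in shControl to 225.9 to 308.0 in shRNF25 (log2 fold change -1.09, limma adjusted p = 0.0041). BCAM, a laminin receptor, rose from 1134 to 1151 normalized counts to 2045 to 2214 (log2 fold change 0.91, limma adjusted p = 0.000357). The other 3 that rose were less secure. CNTN1, a neural contactin with 3.32 to 14.0 normalized counts in shControl and 21.9 to 44.6 in shRNF25, lost its call without shRNF25 replicate 1 or 2 (adjusted p = 0.0968 and 0.0793). The junction proteins CXADR (log2 fold change 0.83) and ESAM (0.79) lost theirs without shControl replicate 2 and without any 1 of the shRNF25 libraries (adjusted p from 0.0739 to 0.137).

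Among counter-receptors of these molecules, 13 of 20 listed were tested, 2 fell and 2 rose, with a median log2 fold change of 0.04. At an unadjusted limma p under 0.05, 4 were lower and 2 higher. ITGAV and ITGB1, named after their values were seen, were lower without overlap but under the fold threshold. Their log2 fold changes were -0.58 and -0.55 (limma adjusted p = 0.0043 and 0.0203). ITGA5, the fibronectin receptor subunit that also binds L1CAM, had 2095, 2195 and 4011 normalized counts in shControl and 895.7, 774.8 and 856.9 in shRNF25. Its log2 fold change was -1.65 (SE 0.223, limma adjusted p = 0.00124), with the highest control again in replicate 3. ITGB3, a subunit of the vitronectin receptor, fell from 67.7 to 119.8 normalized counts to 41.0 to 42.8 (log2 fold change -1.07, limma adjusted p = 0.0105). NRP1, a semaphorin co-receptor that associates with L1CAM, rose from 11277 to 12431 normalized counts to 17590 to 18617 (log2 fold change 0.63, limma adjusted p = 0.0029). ITGAM, a chain of the leukocyte receptor Mac-1 for ICAM1, had 18.3 to 24.3 normalized counts in shControl and 29.6 to 50.1 in shRNF25. Its call (log2 fold change 0.86, limma adjusted p = 0.0465) was lost without any 1 of the libraries except shControl replicate 1 (adjusted p from 0.0585 to 0.202). ITGB2, the chain shared by the leukocyte receptors of ICAMs and named after its values were seen, had 2146 to 2836 normalized counts over all libraries (log2 fold change 0.09, limma adjusted p = 0.627).

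Genes that make, bind or degrade hyaluronan, the ligand of CD44, moved both ways. Of 13 tested among 22 listed, 2 fell and 4 rose, with a median log2 fold change of -0.09. HAS3, a hyaluronan synthase, had 1288, 1584 and 2081 normalized counts in shControl and 5908, 5387 and 6053 in shRNF25 (log2 fold change 1.83, SE 0.164, limma adjusted p = 0.000154). HAS2, another synthase that was named after its values were seen, fell from 423.7 to 516.2 normalized counts to 229.7 to 240.6 (log2 fold change -0.96, limma adjusted p = 0.00108). The 2 synthases thus moved in opposite directions, each without overlap between the groups. CEMIP, which takes part in hyaluronan breakdown, rose from 169.1 to 295.7 normalized counts to 534.9 to 580.0 (log2 fold change 1.42, limma adjusted p = 0.00171). VCAN, the hyaluronan-binding proteoglycan versican, fell from 532.5 to 831.3 normalized counts to 239.2 to 253.5 (log2 fold change -1.35, limma adjusted p = 0.000827). HAPLN1, a link protein, passed the test (limma adjusted p = 0.00171) with 2 reads over the 3 shControl libraries and 16.2 to 24.0 normalized counts in each of shRNF25.

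Linkers between these receptors and the actin skeleton had 1 of 16 tested members lower and 1 higher, with a median log2 fold change of 0.00. MSN (moesin), which ties CD44 and ICAM1 to actin, fell from 19515 to 26459 normalized counts to 12798 to 13561 (log2 fold change -0.73, limma adjusted p = 0.00572). As for CD44, its highest control was shControl replicate 1, without which the log2 fold change of MSN was -0.583 (limma adjusted p = 0.000706) and fell just short of the fold threshold, as it did under quantile normalization (-0.42). ANK1, an ankyrin that is better known from red blood cells, rose from 2.21 to 5.13 normalized counts to 36.2 to 45.3 (log2 fold change 3.18, limma adjusted p = 0.000319). The related linker EZR (ezrin), named after its values were seen, had a log2 fold change of -0.11 (limma adjusted p = 0.509).

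**Figure D3:**
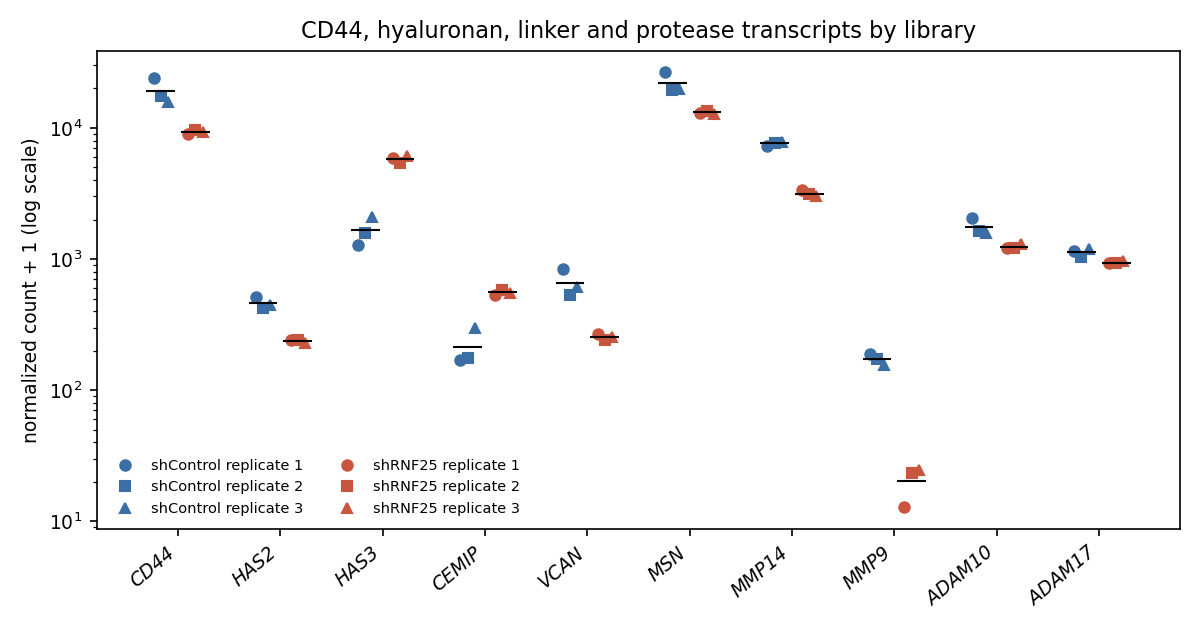
Normalized count plus 1 (log axis) in each of the 6 SW839 libraries for CD44, the hyaluronan genes HAS2, HAS3, CEMIP and VCAN, the linker MSN and the proteases MMP14, MMP9, ADAM10 and ADAM17, with shControl in blue, shRNF25 in red, markers for replicates and bars for group means. HAS3 and CEMIP lie higher in shRNF25, and CD44, HAS2, VCAN, MSN, MMP14 and MMP9 lie lower, each without overlap. ADAM10 and ADAM17 had smaller negative log2 fold changes and were not called.

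Proteases that release the outer part of adhesion molecules, and their inhibitors, had 5 of 17 tested members lower and 0 higher, with a median log2 fold change of -0.28. In the higher direction limma gave 1 gene at an unadjusted p under 0.05, and edgeR and DESeq2 called 0. MMP14, a membrane-bound metalloproteinase that cleaves CD44, had 7330, 7706 and 7846 normalized counts in shControl and 3347, 3110 and 3002 in shRNF25 (log2 fold change -1.28, SE 0.0982, limma adjusted p = 6.52e-05). MMP9, a gelatinase that docks on CD44, fell from 153.3 to 189.0 normalized counts to 11.8 to 23.8 (log2 fold change -3.14, limma adjusted p = 0.000122). ADAM12 and ADAM8, metalloproteinases of the disintegrin family, had log2 fold changes of -1.44 and -0.87 (limma adjusted p = 0.000432 and 0.00468). The main sheddases of CD44 and L1CAM, ADAM10 and ADAM17, also named with their values in view, were not called. ADAM10 had a log2 fold change of -0.50 (limma adjusted p = 0.0203), under the fold threshold, and ADAM17 one of -0.26 (adjusted p = 0.11).

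Splicing factors that act on the variant exons of CD44 had 1 of 15 tested members lower and 0 higher, with a median log2 fold change of -0.12. In limma 1 gene was higher at an unadjusted p under 0.05, and edgeR and DESeq2 called 0 higher. That member, YBX1, had 20396 to 31441 normalized counts in shControl and 13503 to 18241 in shRNF25 (log2 fold change -0.65, limma adjusted p = 0.0292). Its call was lost without shControl replicate 2 or shRNF25 replicate 1 or 3 (adjusted p from 0.0578 to 0.135), without shControl replicate 1, where the log2 fold change was -0.47 and under the fold threshold, and under quantile normalization, where it was -0.31. ESRP1, an epithelial splicing factor for CD44 named after its values were seen, had a log2 fold change of -0.42 (limma adjusted p = 0.0876).

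Transcription factors known to act on ICAM1 and VCAM1, and their inhibitors, had 8 of 27 tested members lower and 2 higher, with a median log2 fold change of -0.36. NFKBIA, the inhibitor IκBα and itself an NF-κB target, fell from 5454 to 6625 normalized counts to 2521 to 3042 (log2 fold change -1.15, limma adjusted p = 0.000328). ETS1, an ETS family factor, fell from 4929 to 5597 normalized counts to 2558 to 2741 (log2 fold change -0.98, limma adjusted p = 0.000283). GATA6 had a log2 fold change of -0.90 (limma adjusted p = 0.0121), and its call was lost without shRNF25 replicate 1 (adjusted p = 0.0657). FOS, an AP-1 subunit, rose from 157.0, 181.6 and 564.5 normalized counts in shControl to 1883, 2088 and 2087 in shRNF25 (log2 fold change 2.99, SE 0.397, limma adjusted p = 0.00114). Of the 5 NF-κB subunits, all named after their values were seen, REL was called lower, at 173.4 to 309.5 normalized counts in shControl and 121.9 to 142.0 in shRNF25 (log2 fold change -0.85, limma adjusted p = 0.0193). The REL call was lost without any 1 of the shRNF25 libraries (adjusted p from 0.0537 to 0.0836). RELA, NFKB2, RELB and NFKB1 were not called, with log2 fold changes of -0.43 (limma adjusted p = 0.148), -0.38 (0.0627), -0.18 (0.466) and 0.08 (0.651). RELA had its highest value, 5387 normalized counts, in shControl replicate 1, against 2966 and 3490 in the other controls.

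**Figure D4:**
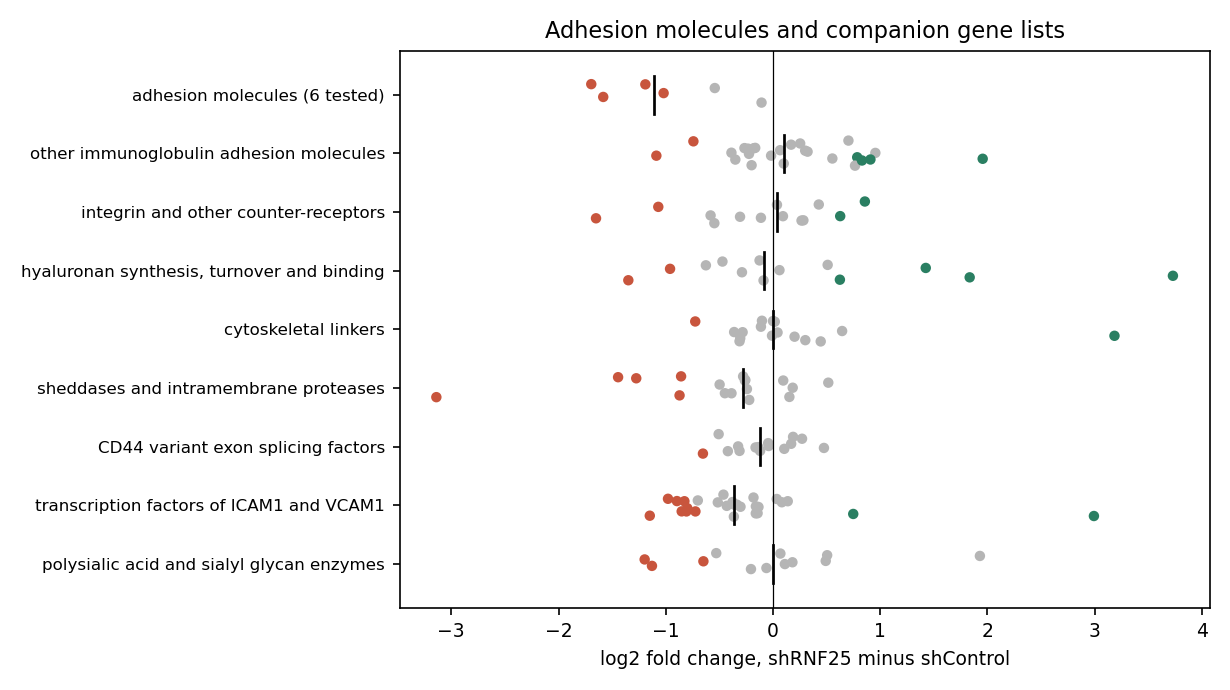
Log2 fold change (shRNF25 minus shControl, x axis) of each tested gene among the adhesion molecules and in 8 companion lists (rows), with genes called lower in red, called higher in green, not called in grey, and the median of each list as a black bar. The bar of the 6 tested adhesion molecules is at -1.11, and those of the companion lists lie between -0.36 and 0.10.

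Enzymes that build polysialic acid, carried by NCAM1, or sialylated glycans had 3 of 12 tested members lower and 0 higher (2 at an unadjusted limma p under 0.05, 0 by edgeR and DESeq2), with a median log2 fold change of 0.00. GCNT1, a branching enzyme of O-glycans, fell from 141.5 ± 26.9 to 60.4 ± 1.97 normalized counts (SD, n = 3 libraries a group; log2 fold change -1.20, limma adjusted p = 0.00243). ST8SIA4, a polysialyltransferase for NCAM1, had a log2 fold change of -1.13 (limma adjusted p = 0.00479), in cells where NCAM1 was near the limit of detection. FUT3, the Lewis fucosyltransferase, had a log2 fold change of -0.65 (limma adjusted p = 0.00415).

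Genes next to the adhesion genes or antisense to them had 9 tested members, with 0 lower (1, CBL, at an unadjusted limma p under 0.05, 0 by edgeR and DESeq2) and 1 higher. That member, ZGLP1, a zinc finger gene of the chromosome 19 cluster, had 9.90 ± 4.75 normalized counts in shControl and 25.3 ± 4.74 in shRNF25 (SD, n = 3). Its call (log2 fold change 1.38, limma adjusted p = 0.0388) was lost without shControl replicate 2 and without any 1 of the shRNF25 libraries (adjusted p from 0.0503 to 0.149). TYK2 and RAVER1, further genes of that region named after their values were seen, were not called (log2 fold changes 0.22 and -0.09).

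Because several adhesion molecules also mark leukocytes, vessels, stroma or neurons, the markers of those cells were summed in each library. The leukocyte list, with 11 of 15 symbols in the table, summed to 344.9 to 556.1 normalized counts in shControl and 189.7 to 211.4 in shRNF25, with 2 of 4 tested genes lower. In every library 7 of these 11 stayed under 10 normalized counts, and the 4 tested had a median log2 fold change of -0.85. Among the low ones, CD3E had 0 to 1.08 normalized counts and CD53 0 to 3.32, while PTPRC had 3.81 to 14.6. CORO1A, an actin regulator, had a log2 fold change of -1.27, and LAPTM5 one of -2.48 that was lost without shRNF25 replicate 3 (limma adjusted p = 0.0501).

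The endothelial list, with 11 of 12 symbols in the table, summed to 1341 to 1748 normalized counts in shControl and 1247 to 1490 in shRNF25, with 1 of 6 tested genes lower and 2 higher. VWF, TEK, CLDN5 and ERG stayed under 13 normalized counts and were not tested. PECAM1, another marker of this list and itself an immunoglobulin adhesion molecule, was named after its values were seen. It had 349.9 to 466.3 normalized counts in shControl and 399.0 to 549.4 in shRNF25 (log2 fold change 0.17, limma adjusted p = 0.505). CDH5, or VE-cadherin, had 73.0, 102.6 and 198.6 normalized counts in shControl and 3.64, 8.31 and 5.72 in shRNF25 (log2 fold change -4.12, limma adjusted p = 0.000213), while KDR and ESAM were higher (1.78 and 0.79).

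The fibroblast and pericyte list, with all 12 symbols in the table, summed to 4646 to 6293 normalized counts in shControl and 3305 to 3875 in shRNF25. Its 1 called gene of 6 tested was NOTCH3 (log2 fold change -0.71), whose call was lost without shRNF25 replicate 2 (limma adjusted p = 0.0553) or shControl replicate 3 (log2 fold change -0.576, under the fold threshold). DCN, THY1 and FAP had 0 to 4.42 normalized counts, so other members carried these sums, which were lower in shRNF25 without overlap. In every library 4 of the 12 stayed under 10, and the 6 tested had a median log2 fold change of -0.45. The neural list, with 11 of 12 symbols in the table, summed to 184.7 to 246.1 normalized counts in shControl and 223.2 to 267.8 in shRNF25. Its 1 called gene of 4 tested was SYP (log2 fold change 1.13), whose call was lost without shControl replicate 2 or shRNF25 replicate 2 or 3 (limma adjusted p from 0.0871 to 0.154). SNAP25 and SOX10 had 0 to 2.16 normalized counts, and 6 of the 11 neural genes stayed under 10 in every library. The 4 tested had a median log2 fold change of 0.55. Of 11 tested renal and epithelial markers, VIM rose (log2 fold change 1.31) and CD24 fell (-0.81). All libraries came from the SW839 line, so these lists describe marker transcripts in its cells. In bulk RNA, fewer cells with a transcript and less of it per cell cannot be told apart. The part of these shifts in the falls of ICAM1, MCAM, L1CAM and CD44 was not tested.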

How the data were processed

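RNA-seq of the renal cell carcinoma line SW839 was analysed in 3 shRNF25 and 3 shControl libraries. The authors deposited a signal for each of 30267 gene symbols, a read count divided by a scaling factor of the library. The submitters' processing notes name fastp, HISAT2, HTSeq and GRCh38. Versions, the annotation and the strand setting of the counting are not given in the sources used here, and the library kit was a stranded one. Whole reads came back for 100% of the deposited signal values within 0.01 reads, and the factors equaled DESeq2's median-of-ratios size factors. The authors tested with DESeq2, here an alternative.

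Values were fitted as log2(normalized count + 1) with limma 3.58.1 (lmFit, eBayes with a trend) in R 4.3.3, over the 16554 genes with at least 10 in at least 3 libraries, with the group as the only term and Benjamini-Hochberg adjustment. Fold changes on this scale understate the change of low genes. Intervals cover the spread between libraries. The script was tested on simulated data with known changes. Levels per kilobase used the exon length of GENCODE 29, matched by symbol.

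The genes named were RNF25, the 9 adhesion molecules, up to 4 called genes with the largest change in each of 15 companion lists, the 3 genes most correlated with ICAM1, and overlapping genes. A gene outside this rule is said in the text to have been named with its values in view or seen. The adhesion molecules and lists were chosen with earlier results of these data known. Of the symbols absent from the table, 2 were matched through RefSeq synonyms, and those left were not analysed here. The result of 1 companion list is not reported here. Promoter windows came from RefSeq (GRCh38.p14).

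Alternative settings were the quasi-likelihood test of edgeR 4.0.16 and the test of DESeq2 1.42.0, both on recovered reads, a pseudocount of 5 or 0.5, the filter dropped or raised to 50, quantile normalization, a rescaling by the median ratio over genes averaging 100 or more, a replicate block, leaving out 1 library at a time, and a fold threshold of 2 or none.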

Additional observations from a re-analysis of the deposited data

How the results depend on the processing

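ICAM1, MCAM, L1CAM and CD44 were called lower under each of the 17 alternatives. The count of adhesion molecules called lower was 4 in 16 of them and 5 without shControl replicate 1, where ICAM5 joined, and 0 were called higher in any. Their log2 fold changes ranged from -1.85 to -1.50 for ICAM1, -1.62 to -1.46 for MCAM, -1.33 to -1.08 for L1CAM and -1.15 to -0.75 for CD44, whose smallest value came with quantile normalization. ALCAM, which was not called in any, turned to 0.0566 under quantile normalization and ranged from -0.212 to 0.0381 when 1 library was left out. Over all genes, the count called higher was 1432 and became 898 with at least 50 normalized counts in 3 libraries, where fewer genes were tested, and 893 at a fold change of at least 2. It ranged from 748 to 1725 when 1 library was left out, with 748, 824 and 831 without shRNF25 replicates 1, 2 and 3. The count called lower was 1175 and became 513 at a fold change of at least 2 and 1785 with no fold threshold. With the replicate block the adhesion molecules called lower were again 4. In this balanced design the block leaves each log2 fold change as it was and can move only the p-values. The limma adjusted p went from 0.000376 to 6.87e-06 for ICAM1 and from 0.000357 to 0.000658 for BCAM. The correlations of deviations within replicate numbers were -0.06, -0.09 and 0.05. They showed no pairing over the tested genes as a whole and do not settle it for single genes. With the replicate block, 1193 genes were called lower and 1398 higher, and on the recovered reads edgeR called 1133 lower and 1525 higher and DESeq2 1220 and 1414. Of 698 single-gene checks over 47 named genes, 648 kept their direction and their side of the adjusted p threshold, 46 lost it, 2 gained it, both ICAM5, and 2 changed sign, both ALCAM. Apart from single libraries, and among the genes reported here, the threshold was lost without the filter for CXADR, ITGAM, SYP and ZGLP1, under quantile normalization for ITGAM, YBX1, SYP and ZGLP1, with DESeq2 for ITGAM, and with the replicate block for ITGAM. With the adjusted p kept, the fold threshold was missed under quantile normalization by MSN, NOTCH3 and DAGLB and after median ratio rescaling by FUT3 and DAGLB. For these genes the cause was not tested. With 7 to 8 reads over all libraries, depth allowed no comparison for ICAM3, VCAM1 and NCAM1, and 3 libraries per group limit the precision of the falls. The hairpin and RNF25 loss cannot be told apart.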
